A study of Mus musculus with 564 samples.

Results

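The comparison described here is that of bone marrow-derived macrophages (BMDMs) stimulated for 2 h with lipopolysaccharide (LPS) against unstimulated (UT) BMDMs, both kept in vehicle (DMSO) and no inhibitor. It was taken from the sample labels, which put 2 libraries in each group, 4 of the 564 libraries of the series. BMDMs are primary macrophages differentiated in culture from bone marrow, here of wild type male C57/BL6 mice of 6 to 8 weeks. Both groups carry no genetic change and had DMSO alone during the 1 h before stimulation. The stimulated cells then received LPS at 10 ng/mL for 2 h, whereas the UT cells received none (their title gives time 0, and another of their labels gives 4 h). Histone H3 acetylated at lysine 27 (H3K27ac) was measured by ChIP-seq, and the values are normalized read counts at 59190 cis-regulatory elements (CREs), the same regions in every library. Nothing in the labels says whether replicates 1 and 2 came from separate cultures or mice, so the p-values below measure the spread between libraries, which may be technical.

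LPS is a component of the outer membrane of Gram-negative bacteria that is sensed by TLR4 together with its partner MD-2 and the co-receptor CD14. One branch of the pathway runs through the adaptor MYD88 to NF-kB and the MAP kinases, and the other through TRIF to IRF3 and interferon beta, which acts back on the cell to turn on interferon-stimulated genes. H3K27ac is deposited by the acetyltransferases CBP and p300 at active promoters and enhancers, so its gain or loss tracks changes in the activity of regulatory elements rather than the amount of RNA. In a bulk library, acetylation in fewer cells and less acetylation per cell cannot be told apart.

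After 2 h of LPS, H3K27ac was higher at 10907 CREs (18.4% of all CREs tested) and lower at 9990 (16.9%) than in UT cells. Which count was larger depended on the scaling, with 9905 higher and 10601 lower after quantile normalization. A CRE was called at an adjusted p under 0.01 (limma, Benjamini-Hochberg over all 59190 CREs) and an absolute difference over 1 on the log2(value + 5) scale, which understates the change of weak CREs. The gains reached further than the losses on this scale, where a fall is limited by the UT value and a rise is not. The median UT value over all CREs was 36.5, and the part of this limit in the difference was not tested. Of the higher CREs, 4814 (44.1%) rose by more than 2 on the log2 scale and 1856 (17.0%) by more than 3, against 2883 (28.9%) and 375 (3.75%) of the lower CREs that fell by as much. Of the higher CREs 3783 (34.7%) had a UT mean under 10, where 23.4% of all CREs did. The 2 LPS libraries lay above the 2 UT libraries in all 10907 higher CREs, and below them in 9988 of the 9990 lower CREs, but such a lack of overlap was frequent among all CREs, with 38.7% above and 36.0% below. At the threshold, the nearest higher CREs inside and outside had a log2 difference of 1.00.

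**Figure D1:**
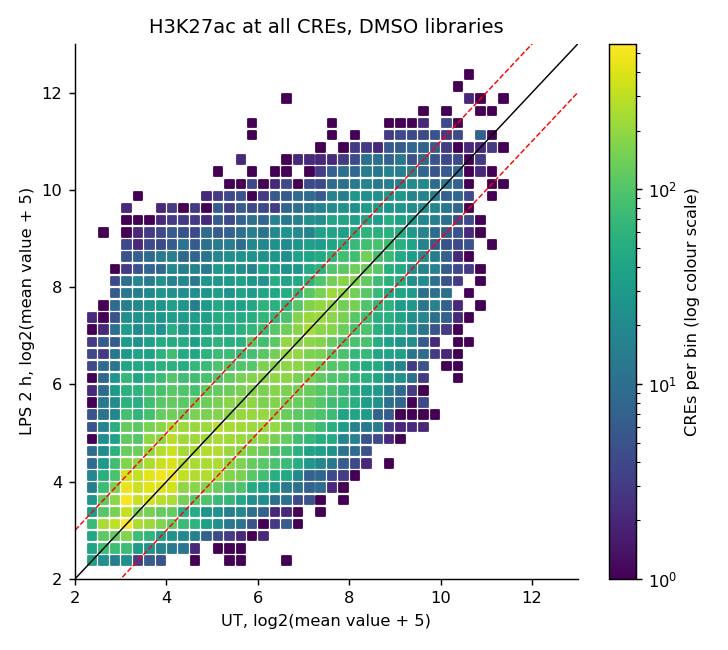
Level of H3K27ac at the 59190 CREs in UT cells (x axis) and after 2 h of LPS (y axis), each as log2 of the mean value of 2 DMSO libraries plus 5, with colour giving the number of CREs per bin on a log scale. The solid line marks equal levels and the dashed lines a log2 difference of 1 either way. The cloud is wider above the diagonal at the left, where CREs with a UT mean under 10 lie, which have little room to fall.

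Change was unevenly spread over the genome. Among 10768 CREs whose centre lay within 1 kb of the start of a protein-coding gene, 8.81% were higher and 11.0% lower. Among 13150 CREs more than 50 kb from any such start, 22.3% were higher and 19.2% lower. Of the genes that were nearest to at least 5 CREs, 3872 in all, 55 had every CRE higher, 28 had every CRE lower and 1144 had CREs called in both directions.

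The sequences of a few of these elements are given first, since the letters they hold recur in the results. The first 4 are promoters of genes whose CRE rose (Il6, Cxcl10, Ifnb1 and Ifit1), and the other 2 are promoters of genes whose CRE fell (Cx3cr1 and Apoe). Each is the 250 bases upstream of the start in RefSeq (GRCm38.p6), 5′ to 3′ on the gene's strand. Capitals mark letters of 9 short motifs, searched on both strands: GGNNTTTCC for NF-kB, GAAANNGAA for the interferon-stimulated response element (ISRE), TTCNNNGAA for the STAT site GAS, TGANTCA for AP-1, TGACGTCA for the cyclic AMP response element, TTGCNNAA for C/EBP, GAGGAAGT for PU.1, TGTGGT for RUNX and CACGTG for the E-box. Copies can overlap, and a match is a description of letters and not of binding. Il6 lies at chr5:30012864-30013113 (+), Cxcl10 at chr5:92348890-92349139 (-), Ifnb1 at chr4:88522795-88523044 (-), Ifit1 at chr19:34640639-34640888 (+), Cx3cr1 at chr9:120068297-120068546 (-) and Apoe at chr7:19699189-19699438 (-).
Il6: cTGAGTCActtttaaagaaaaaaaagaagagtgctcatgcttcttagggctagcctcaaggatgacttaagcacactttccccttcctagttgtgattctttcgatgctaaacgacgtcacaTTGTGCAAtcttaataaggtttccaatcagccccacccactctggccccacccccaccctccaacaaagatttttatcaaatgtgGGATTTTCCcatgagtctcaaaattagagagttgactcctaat
Cxcl10: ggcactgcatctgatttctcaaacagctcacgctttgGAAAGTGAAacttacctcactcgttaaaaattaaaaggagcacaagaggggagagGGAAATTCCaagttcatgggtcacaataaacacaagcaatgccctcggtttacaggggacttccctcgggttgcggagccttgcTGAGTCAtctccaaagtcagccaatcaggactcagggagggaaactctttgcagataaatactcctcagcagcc
Ifnb1: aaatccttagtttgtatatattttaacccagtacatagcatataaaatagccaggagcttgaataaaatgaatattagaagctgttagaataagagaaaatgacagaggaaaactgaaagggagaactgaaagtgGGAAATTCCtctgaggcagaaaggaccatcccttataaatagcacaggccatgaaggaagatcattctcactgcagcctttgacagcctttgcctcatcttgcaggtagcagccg
Ifit1: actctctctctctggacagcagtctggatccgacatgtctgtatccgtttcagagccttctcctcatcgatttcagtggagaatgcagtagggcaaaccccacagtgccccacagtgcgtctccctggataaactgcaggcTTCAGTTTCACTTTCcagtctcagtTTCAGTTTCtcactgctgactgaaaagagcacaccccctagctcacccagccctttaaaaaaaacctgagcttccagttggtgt
Cx3cr1: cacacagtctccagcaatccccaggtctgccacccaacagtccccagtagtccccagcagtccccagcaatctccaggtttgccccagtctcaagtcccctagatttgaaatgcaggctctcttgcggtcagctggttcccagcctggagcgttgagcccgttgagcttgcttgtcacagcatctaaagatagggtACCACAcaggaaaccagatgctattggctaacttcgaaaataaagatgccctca
Apoe: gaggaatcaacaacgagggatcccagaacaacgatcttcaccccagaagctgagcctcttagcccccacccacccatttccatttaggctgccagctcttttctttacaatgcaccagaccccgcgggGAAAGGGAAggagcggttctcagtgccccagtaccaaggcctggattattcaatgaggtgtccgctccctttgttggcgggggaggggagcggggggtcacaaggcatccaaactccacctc

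The Il6 promoter holds AP-1, C/EBP and NF-kB letters at positions 2, 123 and 208 of the window. That of Cxcl10 holds ISRE letters at 38, NF-kB letters at 93 and AP-1 letters at 177. Ifnb1 has NF-kB letters at 136, and Ifit1 has 3 copies of the ISRE letters at 142, 148 and 167, the first 2 of which overlap. Of all 32817 promoter windows of this length, 4.93% hold the NF-kB letters and 7.12% the ISRE letters. The Cx3cr1 promoter holds RUNX letters at 197, and that of Apoe, which fell, holds ISRE letters at 129.

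The distal CREs below are the 3 with the largest gain that hold NF-kB letters in their central 300 bases and the 3 with the largest loss that hold PU.1 letters there. They were picked by their values and by these letters, and show what the 2 classes look like. All are given on the plus strand of GRCm38. The gains are at chr19:29176502-29176801, intergenic and 75176 bases from the nearest start (Jak2), at chr2:30913157-30913456, intronic and 10010 bases from the start of Ptges, and at chr10:75330368-75330667, intronic and 13641 bases from that of Adora2a. The losses are at chr7:142403619-142403918, intergenic and 15731 bases from the start of Ctsd, at chr9:32472391-32472690, intronic and 69054 bases from that of Fli1, and at chr14:103945776-103946075, intergenic and 101524 bases from that of Ednrb.
Near Jak2: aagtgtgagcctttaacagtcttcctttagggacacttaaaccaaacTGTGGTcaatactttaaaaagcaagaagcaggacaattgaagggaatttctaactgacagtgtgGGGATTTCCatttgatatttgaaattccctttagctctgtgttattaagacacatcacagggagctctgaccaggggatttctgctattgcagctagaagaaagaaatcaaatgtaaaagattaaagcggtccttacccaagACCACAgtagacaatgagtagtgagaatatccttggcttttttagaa
Near Ptges: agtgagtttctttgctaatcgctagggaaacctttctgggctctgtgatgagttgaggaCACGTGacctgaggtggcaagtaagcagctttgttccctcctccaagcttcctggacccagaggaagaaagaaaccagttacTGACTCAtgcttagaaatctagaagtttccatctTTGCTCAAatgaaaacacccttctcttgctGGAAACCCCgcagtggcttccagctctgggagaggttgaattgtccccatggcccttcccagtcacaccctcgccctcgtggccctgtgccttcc
Near Adora2a: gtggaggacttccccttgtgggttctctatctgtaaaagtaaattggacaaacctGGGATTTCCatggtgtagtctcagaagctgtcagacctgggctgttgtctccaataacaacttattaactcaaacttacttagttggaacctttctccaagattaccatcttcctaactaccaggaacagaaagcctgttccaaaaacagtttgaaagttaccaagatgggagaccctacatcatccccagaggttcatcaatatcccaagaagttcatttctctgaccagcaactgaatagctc
Near Ctsd: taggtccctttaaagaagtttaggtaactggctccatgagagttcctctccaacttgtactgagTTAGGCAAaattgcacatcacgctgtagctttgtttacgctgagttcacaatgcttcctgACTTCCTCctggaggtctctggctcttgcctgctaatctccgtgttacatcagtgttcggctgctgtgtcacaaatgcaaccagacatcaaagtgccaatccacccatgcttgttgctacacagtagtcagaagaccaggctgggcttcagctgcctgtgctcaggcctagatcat
Near Fli1: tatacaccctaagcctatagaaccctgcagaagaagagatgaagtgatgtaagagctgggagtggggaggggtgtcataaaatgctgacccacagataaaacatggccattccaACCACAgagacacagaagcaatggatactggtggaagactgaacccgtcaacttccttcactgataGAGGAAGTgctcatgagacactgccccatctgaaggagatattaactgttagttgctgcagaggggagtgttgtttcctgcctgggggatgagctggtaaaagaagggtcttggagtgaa
Near Ednrb: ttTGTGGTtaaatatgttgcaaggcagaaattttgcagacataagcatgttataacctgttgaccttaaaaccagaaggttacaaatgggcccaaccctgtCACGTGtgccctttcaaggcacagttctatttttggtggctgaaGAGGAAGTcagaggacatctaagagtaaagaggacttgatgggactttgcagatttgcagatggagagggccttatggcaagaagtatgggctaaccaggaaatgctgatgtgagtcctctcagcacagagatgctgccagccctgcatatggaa

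The CRE near Jak2 had values of 1 and 2 in UT cells and of 542 and 550 after 2 h of LPS. That near Ptges went from 11 and 1 to 583 and 586, and that near Adora2a from 11 and 4 to 682 and 733. In the other direction, the CRE near Ctsd fell from 324 and 300 to 14 and 15, that near Fli1 from 313 and 344 to 18 and 22, and that near Ednrb from 211 and 209 to 8 and 15. The groups do not overlap in any of the 6, which follows from how they were picked, and the replicates near the bottom of the scale differ by several-fold at some, such as 11 and 1 in UT near Ptges.

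The distal CREs, 48422 in all, had their centre more than 1 kb from a start. Wide ones can still overlap a start, and then also count as promoter CREs below. Of the 9958 higher distal CREs 17.6% held the NF-kB letters in their central 300 bases. The share was 6.52% in the 29660 that were not called and 5.02% in the 8804 lower ones. Among the 1784 distal CREs that rose by more than 3 the share was 27.8%. NF-kB is the dimeric factor family released by degradation of its inhibitors after TLR4 is engaged. The ISRE letters, bound by IRF and STAT complexes, were found in 18.2% of the higher, 11.2% of the uncalled and 10.2% of the lower distal CREs, and the GAS letters in 13.7%, 9.44% and 8.42%. AP-1 letters differed less, with 26.6%, 22.9% and 21.7%. PU.1, the lineage factor that opens macrophage enhancers, showed the opposite order, with its letters in 7.63% of higher, 10.5% of uncalled and 13.3% of lower distal CREs, and the E-box letters did the same (3.69%, 4.95% and 6.33%). C/EBP and RUNX letters were spread almost evenly over the 3 classes. Base composition differed as well: the median GC content of the window was 45.3% in higher, 47.3% in uncalled and 48.0% in lower distal CREs, and its part in these shares was not tested.

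Read the other way, the median log2 difference of the 4126 distal CREs with NF-kB letters was 0.80, with 42.4% called higher and 10.7% lower, against 0.03, 18.5% and 18.9% for the 44296 without. The 477 distal CREs with both NF-kB and ISRE letters had a median of 1.14, and 50.3% of them were higher. The 29595 with none of the NF-kB, AP-1 and ISRE letters had a median of -0.03, and 16.4% were higher and 19.8% lower.

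**Figure D2:**
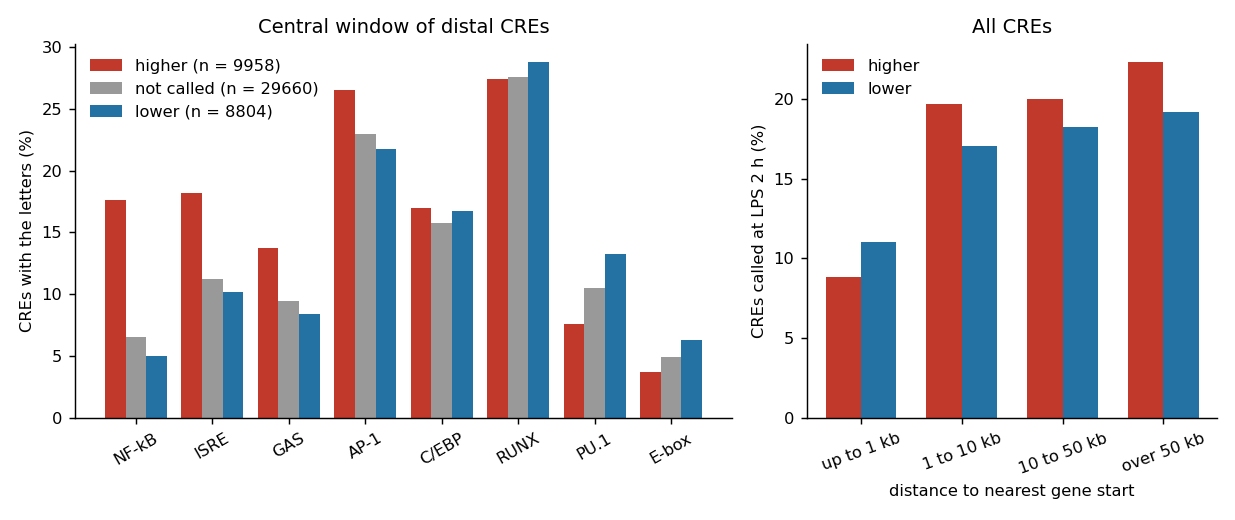
Left, share of distal CREs (centre over 1 kb from a start) whose central 300 bases hold the letters of a motif, for CREs higher (red), not called (grey) and lower (blue) after 2 h of LPS. Right, share of CREs called higher (red) and lower (blue) by distance of the CRE centre to the nearest start of a protein-coding gene. The NF-kB bars fall from 17.6% to 5.02% from higher to lower CREs, and CREs within 1 kb of a start were called least often.

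Of the 10 CREs with the largest gain, none lay at an annotated start of a protein-coding gene. The largest rise, 6.61 ± 0.21 (SE) on the log2 scale, was at an intergenic CRE on chromosome 12 (119105653 to 119108663) 131644 bases from the nearest start, that of Itgb8, where values of 5 and 1 became 790 and 718 (limma adjusted p = 1.7e-20). A second CRE in the same stretch, nearest to Abcb5, rose from 5 and 1 to 642 and 634. Further gains of this size were 4108 bases from Lad1 (7 and 4 to 920 and 839) and 17343 bases from Bcl2a1a (5 and 3 to 778 and 711), although 74.9% of the 51-base words of the latter CRE occur elsewhere in the genome, so its reads cannot all be placed with certainty. Chromosome 18 held 3 of the 10, nearest to Acaa2 (3 and 3 to 583 and 472), Alpk2 (7 and 4 to 682 and 610) and Lipg (12 and 6 to 845 and 750).

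The largest loss was intronic. An intronic CRE 21068 bases from the start of Slco2b1, an organic anion transporter, fell by 4.60 on the log2 scale, from 776 and 749 to 14 and 48. The 2 LPS libraries differ there, but both are far below UT. Of the 10 largest losses, 2 belonged to Foxp1, which encodes a forkhead repressor that falls as monocytes differentiate. At an internal start of that gene values fell from 840 and 949 to 33 and 34, and in an intron 46693 bases from a start from 795 and 821 to 37 and 27. A CRE 89221 bases from a start of Mef2a fell from 791 and 846 to 33 and 43, and others near Tbc1d9, Tbc1d22a, Zfyve28 and Fosb had differences from -4.45 to -4.17. The CRE nearest to Pdia4, with 82 and 104 in UT, was listed at 0 in both LPS 2 h libraries and at 37 and 64 after 4 h, and 1725 of its 1779 51-base words are repeated in the genome.

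Some genes were surrounded by gains or losses. Tnfaip3, which encodes the deubiquitinase A20 that restrains NF-kB, was the nearest gene of 36 CREs, of which 34 rose and none fell. The strongest, 62.7 kb from the start, went from 17 and 5 to 853 and 851, and one at 53.1 kb from 58 and 42 to 2098 and 2114. Nfkbiz, an inducible nuclear partner of NF-kB, had 30 of 38 CREs higher and none lower. Cited2 (38 of 68 higher, 6 lower), Lpp (36 of 56 higher, 2 lower) and Zeb2 (31 of 62 higher, 5 lower) had as many gains but also losses, over stretches of 1454 kb, 800 kb and 1511 kb in which no other protein-coding start is nearer. The gene with the largest number of losses was Zfp36l2, which encodes an mRNA-destabilizing zinc finger protein, with 30 of 38 CREs lower and 3 higher. The largest there, at -70.1 kb from the start, fell from 1407 and 1335 to 87 and 91. Its paralog Zfp36l1 had 18 of 32 lower and none higher. Tomm20 (23 of 26 lower) and Irf2bp2 (21 of 26 lower) are neighbours on chromosome 8 with no gain between them, and Nrp1 had 22 of 40 lower and 4 higher.

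**Figure D3:**
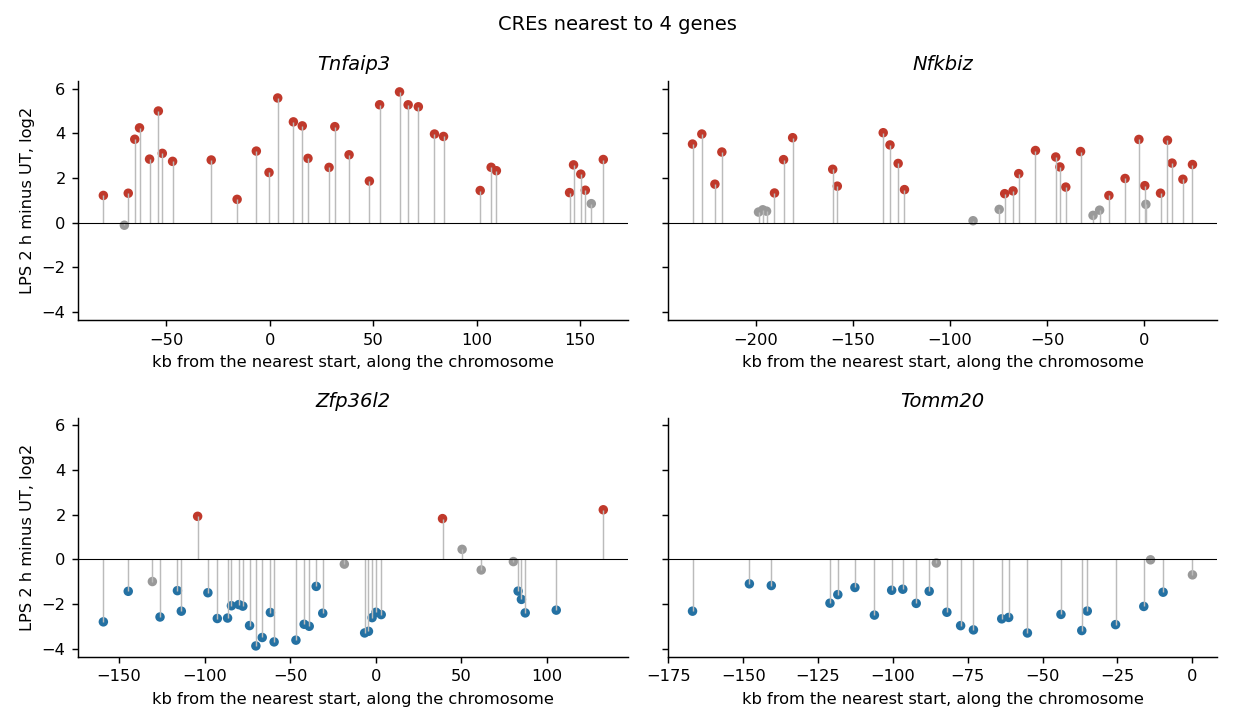
Log2 difference between LPS 2 h and UT (y axis) of each CRE nearest to Tnfaip3, Nfkbiz, Zfp36l2 and Tomm20, by its distance along the chromosome from the nearest annotated start in kb (x axis). Red and blue points were called higher and lower, and grey points were not called. At Tnfaip3 34 of 36 CREs rose, and at Zfp36l2 30 of 38 fell.

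Promoters were then taken gene by gene. A promoter CRE overlaps an annotated start of the gene or has its centre within 1 kb of one, and 11795 protein-coding genes had one. Of these genes 8.59% had a higher and 10.3% a lower promoter CRE after 2 h of LPS, with a median log2 difference of -0.00. The lists below were drawn up by function, with earlier results of these data known, and are read against these shares.

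The cytokine genes were among the clearest gains: 18 of 22 measured promoters rose and none fell, with a median difference of 1.74. Il6, which drives the acute-phase response, went from 30 and 31 to 628 and 666, a difference of 4.20 ± 0.15 (SE, n = 2 and 2; limma adjusted p = 1.4e-19). Il1a went from 24 and 29 to 514 and 487 and Il1b from 135 and 102 to 778 and 743. Il27, whose product pairs with EBI3, rose from 185 and 185 to 2746 and 2749, and Ifnb1, the interferon that drives the second wave, from 31 and 30 to 402 and 301. Il12b, the p40 subunit of IL-12 and IL-23, rose from 12 and 12 to 136 and 130. The UT and LPS libraries do not overlap in any of these, but that held for every CRE called higher. Over all CREs the LPS libraries lay above in 38.7%. Tnf, the prototype early cytokine, was strongly acetylated before stimulation and rose by less, from 602 and 601 to 1322 and 1519 over a CRE of 8852 bases (1.23 ± 0.10). The 4 members that were not called were Il10, the main anti-inflammatory cytokine (366 and 377 against 398 and 364), Osm (-0.44), Csf3 (0.11) and Csf2, whose difference of 1.11 rests on values from 2 to 16 and was called without UT replicate 1 (1.43). Tnf was not called with quantile normalization (0.93). A promoter does not stand for its surroundings: of the 16 CREs nearest to Il10, 13 were higher and none lower. Near Csf2 7 of 12 were higher and none lower, whereas near Csf3 1 of 2 was lower and none higher.

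Chemokine promoters split. Ccl5, which recruits T cells and monocytes, had the second largest promoter gain of any gene, from 98 and 80 to 3373 and 3576 (5.22 ± 0.10, adjusted p = 2.1e-25 in limma). Cxcl10, an interferon-induced attractant of T cells, rose from 60 and 56 to 1135 and 1304, and Cxcl2, Ccl22, Cxcl1, Ccl12 and Ccl4 also rose, by 1.40 to 2.27. Ccl6 fell, from 245 and 263 to 75 and 97. The remaining 6 of 14 were not called, among them the monocyte attractant Ccl2 (108 and 98 against 122 and 101). Of the 8 CREs nearest to Ccl2, however, 4 were higher and none lower.

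NF-kB genes gained as a group, with 15 of 20 promoters higher, none lower and a median of 1.37. Traf1, an adaptor of TNF receptor signalling, stood out with 46 and 56 in UT against 1087 and 1082 at 2 h. The subunit genes Nfkb1 (1.81), Nfkb2 (1.61), Rel (1.35) and Relb (1.15) were called, but Rela, the subunit that is present before stimulation, was not (0.74). The inhibitors Nfkbie (2.17), Nfkbib (1.71) and Nfkbia (1.38) rose together with Tnfaip3 (2.25) and Birc3 (1.73).

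Nearly all interferon-stimulated genes gained. Of 34 measured promoters 33 rose, and the remaining one, Irf9, had a difference of 0.87. The median was 1.93, against -0.00 over all promoters. Ifit1, an inhibitor of foreign RNA translation, went from 109 and 84 to 751 and 712, the GTPase gene Gbp2 from 192 and 194 to 1336 and 1420, Isg15, a ubiquitin-like modifier, from 137 and 123 to 770 and 796, and Mx1, an antiviral GTPase, from 326 and 277 to 1677 and 1589. Differences within the list ran from 0.87 to 2.87.

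**Figure D4:**
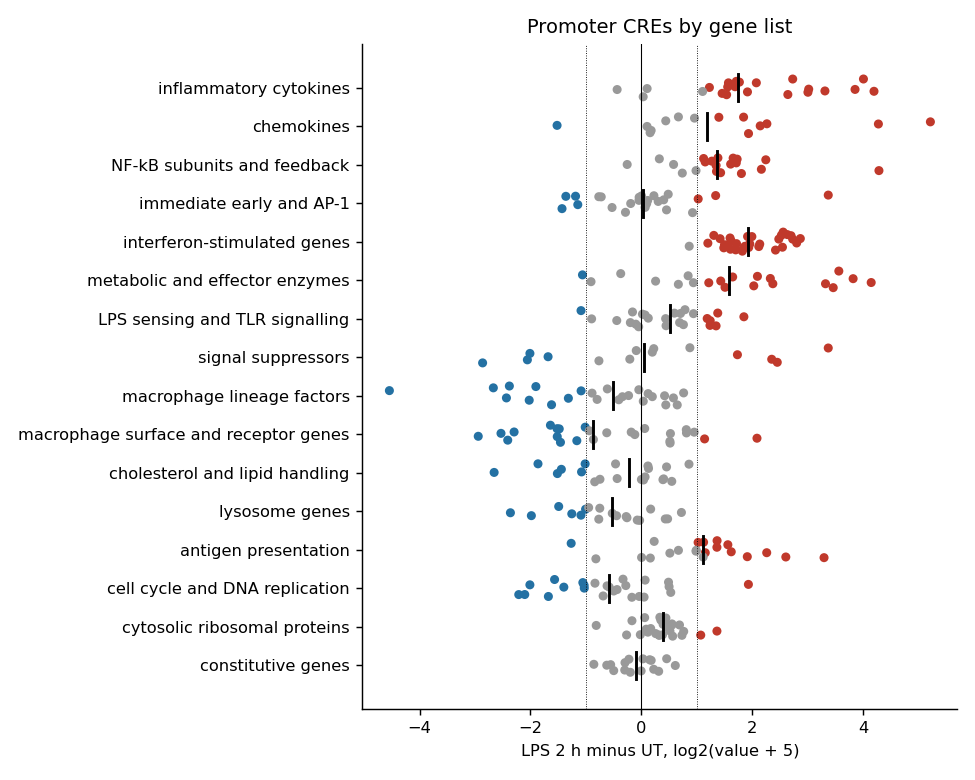
Log2 difference between LPS 2 h and UT (x axis) of the promoter CRE of each measured member of 16 gene lists (rows), 1 point per CRE, with the median as a black bar. Red points were called higher, blue points lower and grey points neither, and dotted lines mark differences of 1 and -1. The interferon-stimulated list has 33 of 34 points in red, and the macrophage lineage list has 9 of 24 in blue and none in red.

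Enzyme and effector genes rose in 13 of 20 cases. Nos2, the inducible nitric oxide synthase, went from 11 and 9 to 270 and 251 (4.15), the siderophore-binding protein gene Lcn2 from 14 and 6 to 215 and 185, the acute-phase gene Saa3 from 48 and 35 to 561 and 519, and the arginine transporter gene Slc7a2 from 14 and 14 to 185 and 226. Acod1, which makes itaconate, rose by 1.51 and Ptgs2, the inducible cyclooxygenase, by 2.10. Hmox1, which encodes heme oxygenase 1, fell from 289 and 306 to 138 and 142 (-1.06), a call that did not hold under every alternative of processing. Among antigen presentation genes 12 of 22 rose, led by the costimulatory receptor Cd40 (98 and 80 to 902 and 928) and the PD-1 ligand Cd274 (210 and 250 to 1462 and 1384), and the class I transactivator Nlrc5 rose by 2.26. Tap1 and Psmb9 share 1 CRE and are counted as 2 members. H2-DMb1, of the class II loading complex, was the only member lower (-1.26), a call that is lost without UT replicate 1 (-1.14) and with a pseudocount of 20 (-0.99).

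The immediate early genes, which respond within minutes, were mostly not called against UT. Of 24 promoters 3 were higher (Dusp2, Maff and Atf3) and 4 lower (Fos, Fosb, Egr3 and Myc). Dusp2, a phosphatase of MAP kinases, rose from 100 and 93 to 1070 and 1023. Fos fell from 580 and 638 to 227 and 241 and Myc from 581 and 669 to 292 and 267, whereas Fosl1 had 47 and 37 against 45 and 39. The calls of Atf3 (1.03) and Egr3 (-1.43) were lost without 1 library, at 0.98 without UT replicate 1 for Atf3 and at -1.28 and -0.97 without UT replicate 2 and LPS 2 h replicate 1 for Egr3.

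Genes of the sensing pathway itself had a median difference of 0.52. Of 24 promoters 6 rose: Tlr3, the receptor of double-stranded RNA (129 and 143 to 457 and 554), Tlr1, Tbk1, Irak2, Mapkapk2 and Myd88, by 1.19 to 1.85. The LPS receptor gene Tlr4 fell, from 867 and 853 to 390 and 415, and Cd14 was not called (-0.10). Signal suppressors went both ways, with 4 higher and 4 lower of 14. The JAK-STAT inhibitors Cish (68 and 73 to 747 and 808), Socs1 (2.45) and Socs3 (2.35) rose with Dusp16. Inpp5d, which encodes the lipid phosphatase SHIP1, fell from 1030 and 1007 to 128 and 144, and Rgs2, Dusp6 and Sh2b3 fell by between 1.68 and 2.05.

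Losses outnumbered gains in the lists of macrophage lineage factors and surface genes. Among 24 lineage factor genes none rose and 9 fell, with a median of -0.51. Beside Foxp1 these included Tfeb, a regulator of lysosome genes (307 and 364 to 32 and 72), Cebpa (358 and 388 to 43 and 97), Bhlhe41 (432 and 425 to 73 and 84), Klf2, Fli1, Rxra and Mef2a. Spi1, the gene of PU.1, was not among them (0.76, not called). The call of Mef2a was lost without LPS 2 h replicate 2 (-0.99) and that of Rxra without UT replicate 1 (-1.21). Of 25 surface and receptor genes 11 fell and 2 rose. The fractalkine receptor gene Cx3cr1 fell from 288 and 296 to 39 and 29 (-2.94 ± 0.21, limma adjusted p = 1.1e-12), the lipid receptor gene Trem2 from 1072 and 1061 to 195 and 167, the lysozyme gene Lyz2 from 653 and 641 to 124 and 132 and the growth factor receptor gene Csf1r from 1794 and 1744 to 621 and 610. The inhibitory Fc receptor gene Fcgr2b (276 and 278 to 1271 and 1121) and the scavenger receptor gene Msr1 (1.14) were the 2 that rose.

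Among lipid handling genes 6 of 20 fell and none rose. Apoe fell from 763 and 771 to 104 and 133 (-2.65), followed by Nceh1, Scd2, Lipa, Fasn and Npc1, while the sterol synthesis gene Hmgcs1 (0.40) was not called. Without LPS 2 h replicate 1 the calls of Fasn (-0.90) and Npc1 (-0.89) were lost, and that of Npc1 also without UT replicate 2 (-0.87). Of 19 lysosome genes 6 fell and none rose: Gpnmb (440 and 476 to 77 and 94), Ctsd, Hexa, Lamp1, Ctsl and Ctsa. Ctsa was not called without UT replicate 2 (-0.98) or LPS 2 h replicate 1 (-0.93). Cell cycle genes fell in 9 of 25 cases, among them Ccnd3, E2f2, Ccnd1 and E2f1 (by 1.68 to 2.21). Under the alternatives of processing given below, this count of 9 was as low as 6. Ccnd2 rose (172 and 137 to 615 and 586). In contrast, 2 of 28 ribosomal protein genes were called, both higher and Rps24 (1.37) among them, a count that fell to 1 without LPS 2 h replicate 1, and 0 of 16 constitutive genes were called by limma. Of these 16, Tubb5 was lowest (-0.86) and Psmb2 highest (0.61).

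The largest promoter gains over all genes were those of Macc1 (10 and 9 to 664 and 771), Ccl5, Zfp811 (5 and 6 to 347 and 241), the interferon-inducible gene Ifi205 (25 and 16 to 632 and 709) and the CRE shared by Fpr2 and Fpr3, receptors of formyl peptides (34 and 29 to 873 and 829). The largest promoter losses after Foxp1 were those of the CRE shared by Sgsh and Slc26a11 (563 and 566 to 33 and 62), Dmpk (408 and 361 to 39 and 27), Zfp395 (241 and 221 to 28 and 14) and Slc43a2, an amino acid transporter gene (1491 and 1428 to 154 and 157).

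Whether the state at 2 h differs from that at 1 h was tested as a direct contrast of the 2 times, in which the UT libraries enter only the estimate of the spread. At 2 h 2909 CREs (4.91%) were higher and 2259 (3.82%) lower than at 1 h, and of promoters 2.13% were higher and 2.35% lower. Which count of CREs was larger depended on the processing. It was 2638 higher and 2677 lower when rescaled to the same total, and 3115 and 2239 with quantile normalization. With an absolute log2 difference over 0.5 the counts were 4357 higher and 4415 lower. Interferon-stimulated genes held the largest share of gains among the lists, with 14 of 34 promoters higher and none lower. Mx1 had 572 and 464 at 1 h and 1677 and 1589 at 2 h, Trim21 220 and 227 then 623 and 646, and Tlr3, outside that list, 153 and 142 then 457 and 554. Fcgr1, a high-affinity Fc receptor gene, had 348 and 309 at 1 h, below its 632 and 650 in UT, and 1277 and 1217 at 2 h. Immediate early genes were the opposite, with 5 of 24 lower and none higher. Egr2 had 702 and 785 at 1 h and 221 and 231 at 2 h, close to its UT values of 211 and 219, and Myc had 826 and 804 then 292 and 267. The cytokine genes Csf2 and Lif and the chemokine genes Ccl2 and Ccl6 were also lower than at 1 h, while Il6 (271 and 257 to 628 and 666) and Edn1 were higher. Foxp1 had the largest promoter fall among the list members, from 305 and 296 to 33 and 34.

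Fewer CREs differed between 2 h and 4 h: 682 (1.15%) were higher and 1312 (2.22%) lower at 2 h, and of promoters 0.365% were higher and 0.593% lower. With quantile normalization the split was even, 982 higher and 980 lower, and without LPS 4 h replicate 1 it was 662 and 616. Leaving out another library lowered the higher count instead, to 336 (970 lower) without LPS 2 h replicate 1, to 367 (977 lower) without LPS 2 h replicate 2 and to 394 (1357 lower) without LPS 4 h replicate 2. The total of 1994 fell to 60 when limma was run with no mean trend. Promoters higher at 2 h than at 4 h included Il12b (136 and 130 at 2 h, 32 and 28 at 4 h), Il23a, Cxcl1 (110 and 84 then 16 and 31), Cxcl3, Cish, Slc7a11 and Mmp13. Promoters lower at 2 h than at 4 h included Saa3 (561 and 519 then 1463 and 1245) and Lcn2 (215 and 185 then 519 and 487). Several genes lost at 2 h were higher again at 4 h, with Cd68 at 473 and 518 then 1284 and 1139, Lyz2 at 124 and 132 then 316 and 255, and likewise Cx3cr1, Gpnmb, Inpp5d, Tfeb, E2f1 and Hmox1.

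**Figure D5:**
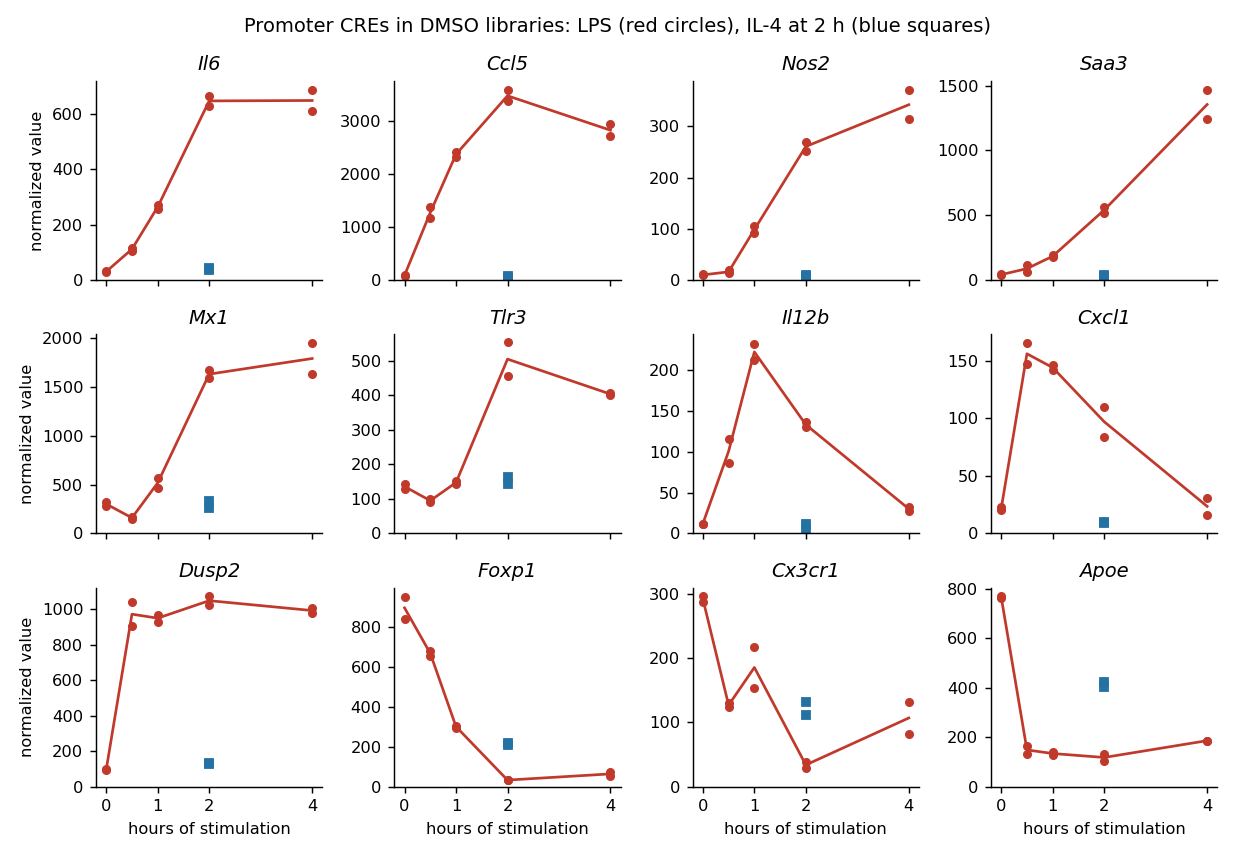
Normalized value (y axis, from 0) of 12 promoter CREs in DMSO cells by hours of stimulation (x axis), with UT at 0. Red circles are the 2 LPS libraries of a time, red lines join their means and blue squares are the 2 IL-4 libraries at 2 h. Il12b and Cxcl1 are past their highest value by 2 h, Mx1 and Tlr3 rise between 1 h and 2 h, and Foxp1, Cx3cr1 and Apoe fall.

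Against IL-4, the cytokine that drives alternative activation, at the same time and dose, 11446 CREs (19.3%) were higher and 9869 (16.7%) lower with LPS. Of promoters 7.21% were higher and 13.6% lower, with a median difference of -0.25. The median was -0.31 in the list of constitutive genes and -0.38 in that of ribosomal protein genes. The part of this shift in the promoter shares was not tested. Cytokines (19 of 22 higher), interferon-stimulated genes (31 of 34) and NF-kB genes (13 of 20) were higher with LPS, none of their promoters being lower. Arg1, the arginase of alternatively activated macrophages, had 71 and 65 with LPS and 671 and 747 with IL-4. Socs2 (24 and 41 against 304 and 304), the PD-1 ligand gene Pdcd1lg2 (16 and 27 against 276 and 293) and Mrc1, the mannose receptor gene (104 and 87 against 443 and 526), were also lower with LPS. For some genes no difference between the stimuli was called although LPS raised them over UT. Socs1 had 1501 and 1418 with LPS and 1348 and 1191 with IL-4 against 251 and 274 in UT, a difference between stimuli of 0.20 ± 0.10 (SE), and Slc7a2 had 185 and 226 with LPS and 181 and 187 with IL-4. Foxp1 was lower after both stimuli, at 33 and 34 with LPS and 208 and 218 with IL-4.

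The same comparison could be made in the cells given 1 of the clinical kinase inhibitors (CKIs), whose libraries share none with the DMSO groups. For 55 CKIs both LPS 2 h and UT libraries existed. Across all CREs, the correlation of a CKI's difference with that in DMSO ranged from 0.440 to 0.882, with a median of 0.745, a description over CREs that are not independent. Of the CREs higher in DMSO, a median of 92.5% had a positive difference in a CKI (range 58.4% to 99.2%), and of the lower ones 94.5% had a negative one (68.2% to 98.9%), where of the CREs not called in DMSO a median of 50.9% were positive (21.7% to 70.9%). These baselines move with the shares: the lowest share of 58.4% positive and the baseline of 21.7% positive belong to the same CKI, Talmapimod. The lowest share of 68.2% negative among the lower CREs belongs to PH797804. In that CKI 70.9% of the uncalled CREs were positive, so a minority of them were negative. The promoters of Il6, Ccl5, Nos2, Mx1, Traf1 and Cd40 had a positive difference in 55 of 55 CKIs, and those of Foxp1, Apoe and Trem2 a negative one in 55 of 55. Il12b was positive in 53 and Il10 in 17. The share of all CREs with 1 sign in every CKI was not taken, so these counts have no baseline. The differences were smaller with CKIs. Over the higher CREs the median of the CKI medians was 1.12, against 1.86 in DMSO, and over the lower ones -1.12 against -1.63. These CREs were called in DMSO, and the reason for the smaller sizes was not tested.

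Scaled totals were 6026286 and 5923684 in UT and 6441366 and 6431581 after 2 h of LPS, and they do not give the sequencing depth. The replicates correlated at 0.982 in UT and 0.965 in LPS over all CREs. CREs were ranked by mean over the 4 libraries, and in each library the median of the top 10% divided by that of the bottom 10% was 95.5 and 130 in UT and 70.0 and 85.0 after LPS, and its part in the results was not tested. All 8 fixed macrophage markers had a promoter CRE, with summed values of 7737 and 7644 in UT and 6641 and 6589 after LPS. Of these 8, 4 were called lower and none higher, with log2 differences from -2.29 to 0.95. Of the markers of other cells, 1 of 8 for T cells, 2 of 7 for B cells, 3 of 8 for neutrophils, 0 of 7 for erythroid cells, 2 of 8 for fibroblasts and 2 of 7 for dendritic cells had one, and defining members such as Cd3e, Ly6g, Gata1 and Col3a1 had none. Summed values of the neutrophil markers were 331 and 344 in UT and 741 and 697 after LPS, and those of the fibroblast markers 8 and 12 against 126 and 104. The dendritic cell markers had 20 and 17 against 79 and 81, of which Ccl22, also in the chemokine list, rose. Within the other lists Camp (5 and 4 to 81 and 75) and Pdgfrb (4 and 9 to 112 and 99) rose, and the T cell marker Cd28 fell from 242 and 224 to 57 and 67. The part of such cells in the results was not tested.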

How the data were processed

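H3K27ac ChIP-seq reads of single-end libraries were mapped by the authors to mm10, and the deposited values are a score: normalized read counts at common CREs, scaled by the authors on invariant peaks and rounded to whole numbers. Sequencing depth is therefore not known, and no count model was used. Groups came from the sample labels. Values were taken as log2(value + 5) and all 59190 CREs were fitted with limma 3.58.1 (trend, R 4.3.3) on the 10 DMSO libraries of the LPS course, or on all 18 DMSO libraries for IL-4. Each CRE was assigned to GENCODE vM21 protein-coding starts, and each gene to the CRE overlapping, or within 1 kb of, a start, the nearest one being used. Named were the 10 largest gains and losses, the 5 largest at promoters, the 5 genes with most called CREs in each direction, and up to 8 members of each list with its defining members. The members and lists were chosen with earlier results of these data known. The fit was tested on simulated data. Alternatives were other pseudocounts, scalings, thresholds, a minimum mean of 10, no mean trend, the replicate number as a block and leaving out each library. Replicate numbers did not pair the samples.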

Additional observations from a re-analysis of the deposited data

Results flagged for a closer look

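The state after 2 h of LPS differed from that of 3 other stimulated groups by a direct test (limma) at many CREs. Against 1 h of LPS, 2909 CREs were higher and 2259 lower at 2 h. Against 4 h, 682 were higher and 1312 lower. Against 2 h of IL-4, 11446 were higher and 9869 lower. With 2 libraries per group, no search for a library that stands apart within a group was possible.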

How the results depend on the processing

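Against UT the 20897 called CREs became 15601 to 25501 over 15 alternatives, and 17955 to 19108 when 1 library was left out. Their split of 10907 higher and 9990 lower became 9905 and 10601 with quantile normalization. When rescaled to the same total it became 10205 and 11121. Against IL-4 the 21315 became 15772 to 26706 over 13 alternatives, and 19311 to 19784 with 1 library left out. With quantile normalization 10405 were higher and 10877 lower than with IL-4. Against 1 h the 5168 became 3422 with a pseudocount of 20, 8772 with an absolute log2 difference over 0.5, and 3861 to 4405 with 1 library left out. Against 4 h the 1994 became 1155 with a pseudocount of 20, 4162 with a difference over 0.5, 60 with no mean trend, and 1278 to 1751 with 1 library left out, the lowest being without LPS 4 h replicate 1 and 1306 without LPS 2 h replicate 1. The cause was not tested. Samples shared only a replicate number (correlation of deviations between UT and LPS 2 h 0.016), and with the replicate number as a block the counts were 20851 against UT, 5126 against 1 h, 1968 against 4 h and 21301 against IL-4. Quantile normalization moved the median of all CREs from 0.06 to -0.07 against UT. Of the named promoters, 6 that were not called changed sign. Il10 was at -0.066 with quantile normalization, at -0.071 when rescaled to the same total and from -0.029 to 0.098 with 1 library left out. With 1 library left out Csf3 ranged from -0.23 to 0.44, Ccl2 from -0.025 to 0.24, Fosl1 from -0.15 to 0.16 and Socs2 from -0.42 to 0.24. When rescaled, Fosl1 was at -0.091 and Egr2 at -0.035. Scaled values do not give the depth, so no limit for weak CREs can be stated.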
